A study of Mus musculus with 6 samples.

Results

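The genes described here encode the tricarboxylic acid (TCA) cycle, the pyruvate dehydrogenase complex that feeds it, and the routes of anaplerosis that exchange carbon with it. They are 33 genes chosen by name, and all 33 were found among the 54532 genes measured in mouse heart. The study compared hearts of Ythdc1-CKO mice (CKO, 3 libraries), a knockout of Ythdc1, with hearts of Ythdc1flox/flox mice (flox control, 3 libraries), which carry the floxed alleles. Ythdc1 encodes a nuclear reader of the messenger RNA modification m6A. The labels state that mice of both groups had received normal chow for 15 days and that replicates were biologically independent. They give no age, sex, strain, Cre driver or deleted exon. The knockout is called CKO in the sample labels and HKO in the design text.

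The TCA cycle oxidises acetyl-CoA in the mitochondrial matrix and passes its electrons to the respiratory chain. In heart muscle, which relies on oxidative metabolism, pyruvate enters the matrix through the mitochondrial pyruvate carrier and is converted to acetyl-CoA by pyruvate dehydrogenase. That complex is switched off by pyruvate dehydrogenase kinases and switched on by pyruvate dehydrogenase phosphatases. Anaplerotic enzymes such as pyruvate carboxylase and malic enzymes exchange cycle intermediates with other pools, and the malate-aspartate shuttle carries reducing equivalents across the inner membrane.

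Levels are deposited FPKM, fragments per kilobase of gene, scaled for sequencing depth, a scale on which genes can be compared per length. Gene-assigned reads, recovered from the FPKM, numbered 17434296 to 19360428 per library, and the members held between 133 (Pcx) and 40338 reads (Pdk4) in a library. Ythdc1 itself measured 2.39, 2.57 and 2.34 FPKM in CKO 1, 2 and 3, against 4.31, 3.64 and 4.10 FPKM in flox control 1, 2 and 3, with no overlap between the groups. Its log2 fold change was -0.54 (limma adjusted p = 0.015). The call was lost without CKO 3 (adjusted p = 0.0535), flox control 1 (0.0707) or flox control 3 (0.0637) and with TPM (0.0873). CKO 3 held 4037 Xist reads and 33 Ddx3y reads, against 0 to 5 Xist reads and at least 1004 Ddx3y reads in each other library. This is the pattern of a female heart, and the other 5 libraries had that of male hearts. CKO 1 lay apart on the second principal component (21.9% of variance) and held 472 FPKM of the myeloid marker Lyz2, against 36.2 to 102 FPKM in the others. Reads of genes encoded in mitochondrial DNA took 20.7%, 14.4% and 19.6% of the total in CKO 1, 2 and 3, and 18.4% to 21.02% in flox controls.

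In CKO hearts 13 of the 33 genes fell, with examples at every step except pyruvate entry. All 33 averaged 1 FPKM or more and were tested: 13 fell, 0 rose and 20 did not pass (limma on log2(FPKM + 1), adjusted p under 0.05). Over all 12144 genes tested, 5.49% were called lower and 5.69% higher (11.2% in either direction). The members were chosen with earlier results of these data known, so comparisons of their counts with all genes are description and not a test. Among the 3891 genes averaging 10 FPKM or more, 6.27% were called lower. At an unadjusted p under 0.05, 23 of the 33 were lower and 1 was higher. The share of all genes under this cut-off was not computed, so these counts have no background beside them. The log2 fold change was negative in 29 members, against 48.9% of all genes tested, and its median was -0.51, against 0.01 over all genes. All 3 CKO libraries lay below all 3 flox controls in 22 members, where 17.4% of all genes did so, and above them in 1 member, Pdk1, where 16.9% did so. By step, the decreases numbered 0 of 2 genes of pyruvate entry, 2 of 5 of the pyruvate dehydrogenase complex and 1 of 5 of its regulators. They numbered 8 of 13 genes of the TCA cycle and 2 of 8 of anaplerosis and shuttles.

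**Figure D1:**
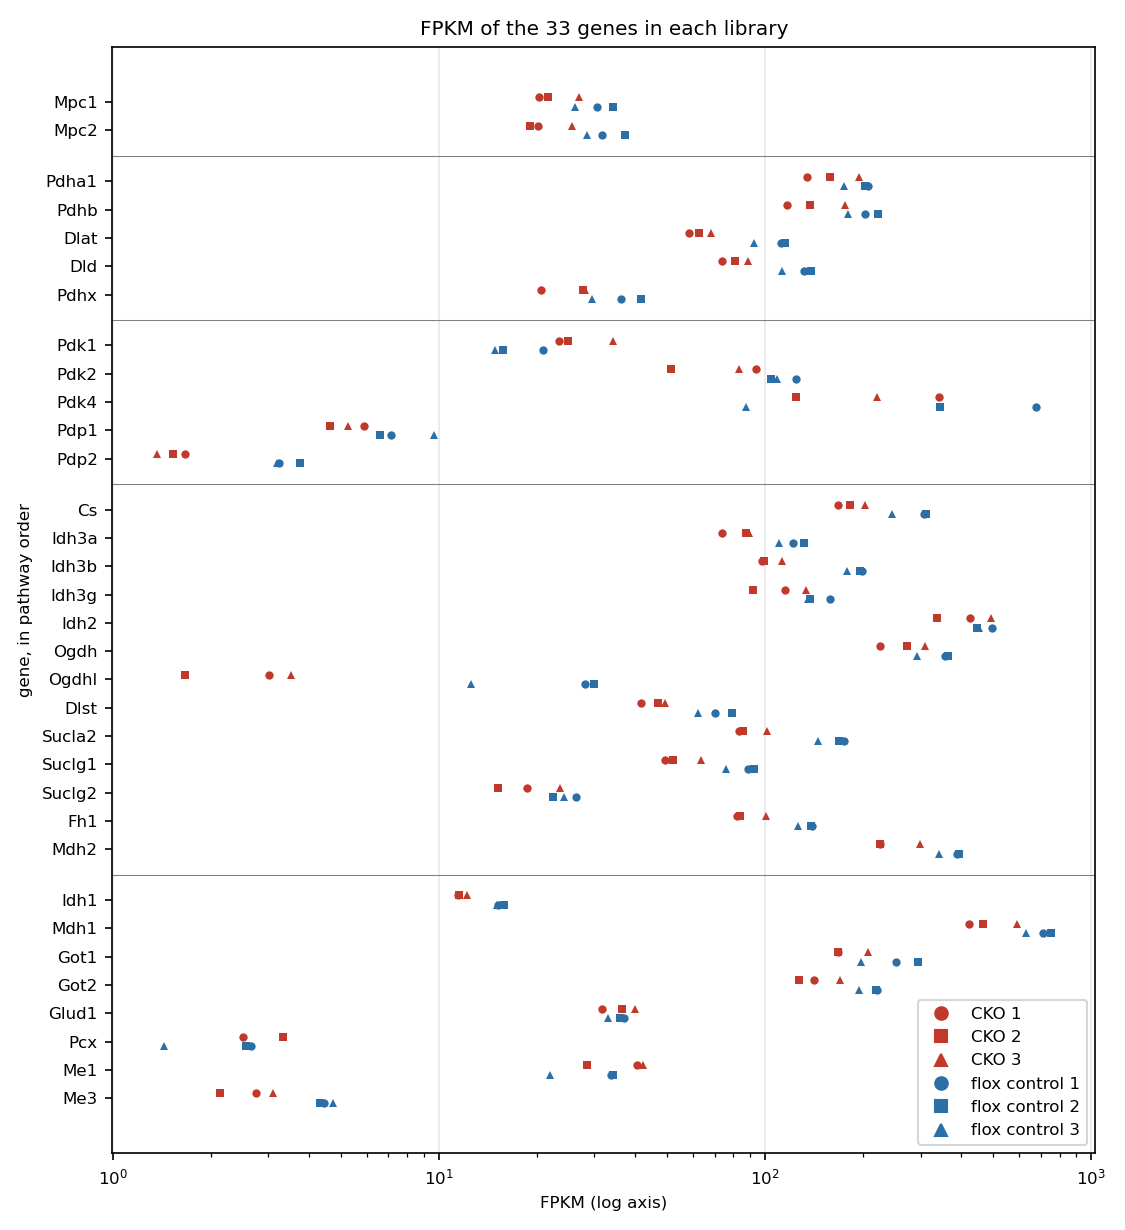
FPKM of each of the 33 genes in each library, on a log axis, with genes in pathway order from pyruvate entry at the top to anaplerosis at the bottom. Red symbols are CKO libraries, drawn above the blue symbols of flox controls. CKO symbols lie to the left of all flox control symbols in 22 genes and to the right in Pdk1, and Ogdhl shows the widest gap.

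The number of calls rested on all 6 libraries. It was 6, 5 and 9 members lower without CKO 1, 2 and 3, and 3, 4 and 5 without flox control 1, 2 and 3. Pdp2, Idh3b and Ogdhl kept their calls in each of these 6 fits. The median log2 fold change of the 33 genes lay between -0.65 and -0.47 in them. Within CKO hearts the libraries differed in degree: the median deviation of the 33 genes from their flox control means was -0.58, -0.64 and -0.32 in CKO 1, 2 and 3. CKO 3 was the highest CKO library in 29 of 33 members. In flox controls 1, 2 and 3 the same median was 0.06, 0.12 and -0.16, and flox control 3 was the lowest control in 28 of 33 members. The median over all genes tested stayed between -0.0093 and 0.0057 in every library.

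**Figure D2:**
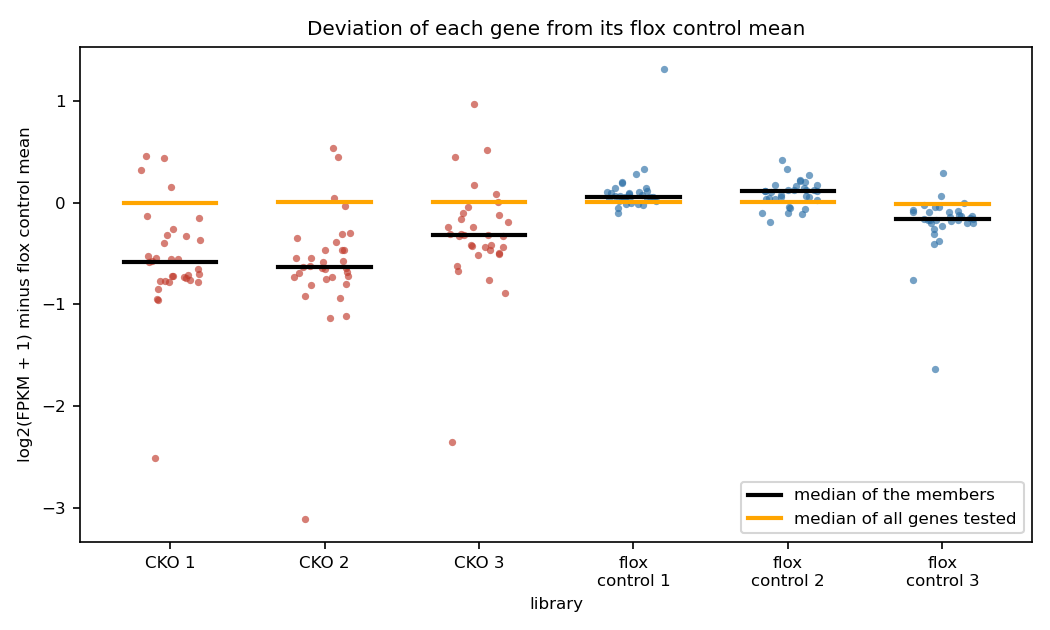
Difference between log2(FPKM + 1) and the flox control mean of the same gene, for each of the 33 genes (points) in each library. Black bars are medians of the 33 genes, from -0.64 in CKO 2 to 0.12 in flox control 2, and orange bars are medians of all genes tested, which lie near 0 in every library.

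Of 10 cardiomyocyte markers examined, 1 (Tnni3) was called lower and 9 did not pass. All 10 log2 fold changes were negative, with a median of -0.38, and that of Tnnt2 was -0.15 (limma adjusted p = 0.678). Their summed level was 17009 to 22401 FPKM in CKO hearts, against 21619 to 25927 FPKM in flox controls, and none was at 0. Of 8 fibroblast markers, 1 (Tcf21) was called higher, and their sum was 627 to 946 FPKM in CKO hearts, against 511 to 660.2 FPKM in flox controls. Of 7 endothelial markers, Vwf was called higher and Tie1 lower. Of 4 atrial markers, Sln was called lower and Nppa higher, and Myl7 and Myl4 did not pass. Their sum was 547 to 2100.0 FPKM in CKO hearts, against 153 to 395 FPKM in flox controls, and most of the CKO sum was Nppa, which also marks stressed ventricle (1170 ± 796 FPKM in CKO hearts and 125 ± 57.9 FPKM in flox controls, SD, n = 3 each). The other 3 had negative fold changes, with Myl7 at 34.7 ± 9.16 FPKM in CKO hearts and 151 ± 93.7 FPKM in flox controls (-1.90, adjusted p = 0.0631), and the median of the 4 was -1.99. The summed macrophage and leukocyte markers were 552, 96.6 and 50.1 FPKM in CKO 1, 2 and 3, against 66.7 to 136 FPKM in flox controls. In whole hearts, fewer cells of a type and less RNA per cell cannot be told apart, and the part of cell composition in the pathway's decrease was not tested.

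Sequences at the start sites of 2 genes that fell are shown. Ogdhl is the member with the largest fold difference, and Dlst encodes another component of the oxoglutarate dehydrogenase complex and has a match to a searched motif there. Each sequence runs from 120 bases before to 10 bases after the RefSeq start site on GRCm38.p6, 5′ to 3′ on the gene's strand. Capitals mark a match to CCGGAAG, a site of the kind bound by ETS factors such as GABPA, here on the opposite strand. The Ogdhl stretch is chr14:32321899-32322028 and that of Dlst is chr12:85110713-85110842, both on the plus strand.
Ogdhl: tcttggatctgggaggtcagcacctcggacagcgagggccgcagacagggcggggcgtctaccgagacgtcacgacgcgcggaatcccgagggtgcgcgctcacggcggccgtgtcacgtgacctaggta
Dlst: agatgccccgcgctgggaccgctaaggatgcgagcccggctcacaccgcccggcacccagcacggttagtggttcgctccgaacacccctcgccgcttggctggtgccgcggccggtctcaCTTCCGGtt

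Promoter windows of 300 bases, from 250 before to 50 after a RefSeq start site, matched 31 of the 33 members, and motifs were searched on both strands. Idh3a and Pdp1 had none. A RefSeq start site need not be the outer bound of the gene as counted. That of Sucla2 lies inside the gene's deposited bounds (chromosome 14, 73525319 to 73596142). The ETS site was found in windows of 5 of these 31 genes (Dlst, Glud1, Idh3b, Idh3g and Mpc1), or 16.1%, against 9.93% of all 27025 genes with a window. The core of the NRF1 site (GCGCA, any base, then GCGC) was found in 2 (Dld and Sucla2), or 6.45%, against 5.19% of all genes. AAGGTCA, the core of the element bound by estrogen-related receptors, was found in 2 (Got1 and Ogdh), or 6.45%, against 5.38% of all genes. Of these genes, Dlst, Idh3b, Dld and Sucla2 fell and Glud1, Idh3g, Mpc1, Got1 and Ogdh did not pass. No match was present in the Ogdhl window. The windows of the members were richer in G and C, with a median of 61.5%, against 52.7% over all windows.

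Both subunits of the mitochondrial pyruvate carrier, which admits pyruvate to the matrix, had negative fold changes, and neither passed in the fit reported. Mpc2 measured 20.2, 19.0 and 25.7 FPKM in CKO 1, 2 and 3, against 31.7, 37.2 and 28.4 FPKM in flox control 1, 2 and 3. The groups did not overlap, and the log2 fold change was -0.57 (SE 0.15, limma adjusted p = 0.0592). Mpc2 did pass with a filter at 5 FPKM (0.0499), with equal read sums (0.0331) and with TPM without mitochondrial genes (0.0206). Mpc1 measured 20.3, 21.6 and 27.0 FPKM in CKO 1, 2 and 3, against 30.6, 34.1 and 26.2 FPKM in flox control 1, 2 and 3, and CKO 3 lay above flox control 3 (log2 fold change -0.39, adjusted p = 0.141). The Mpc1 level is uncertain because the processed pseudogene Mpc1-ps, with 330 bases against 2082 for Mpc1, shares 269 of its 31-base words with Mpc1 transcripts. Mpc1-ps was assigned 1359, 1405 and 1891 reads in CKO 1, 2 and 3 and 1947, 2237 and 1869 reads in flox control 1, 2 and 3, or 177 for every 100 reads of Mpc1. With these reads added to Mpc1, a step chosen after the values were seen, its log2 fold change was -0.41 (limma adjusted p = 0.18).

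Within the pyruvate dehydrogenase complex, the acetyl-transferring and the lipoamide-reoxidising components fell, and the other 3 subunits had negative fold changes that did not pass. Dlat, the dihydrolipoamide acetyltransferase, measured 58.5, 62.6 and 68.5 FPKM in CKO 1, 2 and 3, against 112, 116 and 92.6 FPKM in flox control 1, 2 and 3 (log2 fold change -0.74, SE 0.13, limma adjusted p = 0.0179). Dld, the dihydrolipoamide dehydrogenase shared with the oxoglutarate dehydrogenase complex, measured 74.0, 80.8 and 88.8 FPKM in CKO 1, 2 and 3, against 131, 138 and 112 FPKM in flox control 1, 2 and 3 (log2 fold change -0.64, SE 0.13, adjusted p = 0.0275). In both genes every CKO library lay below every flox control, and CKO hearts held 0.592 and 0.638 times the control mean. The Dlat call was lost without CKO 2 (0.0509), flox control 1 (0.0815) or flox control 2 (0.0605), and the Dld call without any 1 library (0.0508 to 0.111) or with no filter on low values (0.0506).

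The subunits of the pyruvate-decarboxylating component were closer to control levels. Pdha1, the X-linked alpha subunit that carries the regulatory phosphorylation sites, averaged 162 ± 30.4 FPKM in CKO hearts and 195 ± 17.5 FPKM in flox controls (SD, n = 3 each). Its groups overlapped, with CKO 3 at 195 FPKM above flox control 3 at 175 FPKM, and the interval of its log2 fold change ran from -0.67 to 0.12 (95%). Pdhb, the beta subunit, averaged 143 ± 29.8 FPKM in CKO hearts and 202 ± 21.3 FPKM in flox controls (log2 fold change -0.50, adjusted p = 0.122). Pdhx, the component that tethers Dld to the core, averaged 25.4 ± 4.22 FPKM in CKO hearts and 35.8 ± 6.08 FPKM in flox controls (-0.48, adjusted p = 0.128). The groups of Pdhb and Pdhx did not overlap, although in each the highest CKO library and the lowest flox control were close, at 176 and 179.7 FPKM for Pdhb and at 27.96 and 29.5 FPKM for Pdhx.

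The regulators of pyruvate dehydrogenase included a decrease and fold changes of both signs. Pdp2, a phosphatase subunit that activates the complex, fell: it measured 1.66, 1.53 and 1.37 FPKM in CKO 1, 2 and 3, against 3.24, 3.75 and 3.18 FPKM in flox control 1, 2 and 3. CKO hearts held 0.448 times the control mean (log2 fold change -0.80, SE 0.10, limma adjusted p = 0.00762), and the call held without each library in turn (0.00911 to 0.0385). Its paralog Pdp1 measured 5.91, 4.64 and 5.28 FPKM in CKO 1, 2 and 3, against 7.11, 6.61 and 9.65 FPKM in flox control 1, 2 and 3. These groups did not overlap, but the difference did not pass (log2 fold change -0.48, adjusted p = 0.0917).

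The 3 kinase genes, whose products inhibit the complex, did not share a direction and none passed. Pdk1 measured 23.3, 25.0 and 34.2 FPKM in CKO 1, 2 and 3, against 20.8, 15.7 and 14.8 FPKM in flox control 1, 2 and 3, with all CKO libraries above all controls (log2 fold change 0.65, SE 0.18, limma adjusted p = 0.0706). Rescaling each library to the same sum of reads made it a call (adjusted p = 0.0305), as did both TPM scalings (0.0376, and 0.0421 with mitochondrial genes left out of the sum). Pdk2 measured 93.7, 51.4 and 83.0 FPKM in CKO 1, 2 and 3, against 125, 105 and 109 FPKM in flox control 1, 2 and 3 (log2 fold change -0.60, adjusted p = 0.144). Its groups did not overlap either, and CKO 2 was the lowest library. Pdk4, the kinase induced by fasting and fatty acids, was the most variable member: it measured 342, 125 and 221 FPKM in CKO 1, 2 and 3, against 679.5, 344 and 87.2 FPKM in flox control 1, 2 and 3. The range within flox controls was wider than that within CKO hearts, and the 95% interval of its log2 fold change ran from -2.16 to 1.42 (adjusted p = 0.793).

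The balance of paralogs within a library does not depend on how the library was scaled. Pdk1 made up 19.9%, 32.7% and 29.2% of the summed FPKM of Pdk1 and Pdk2 in CKO 1, 2 and 3, against 14.3%, 13.0% and 12.0% in flox control 1, 2 and 3. The share was higher in all 3 CKO hearts (exact two-sided permutation p = 0.1, the smallest that 3 against 3 libraries can give, and 0.217 adjusted over the 13 shares computed). Pdk4 made up 62.0% to 74.5% of the summed FPKM of Pdk1, Pdk2 and Pdk4 in CKO hearts, without Pdk3. In flox controls it made up 41.3% to 82.4%, so CKO values lay inside the control range. The share of Pdk1 in this trio was 5.08%, 12.4% and 10.1% in CKO 1, 2 and 3. In flox control 1, 2 and 3 it was 2.52%, 3.37% and 7.02%, so the groups overlapped (exact two-sided permutation p = 0.2, adjusted 0.289). Pdp2 made up 20.6% to 24.7% of both phosphatases in CKO hearts and 24.8% to 36.2% in flox controls, where CKO 2 and flox control 3 nearly met. The pairs and trios were chosen after the values were seen.

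**Figure D3:**
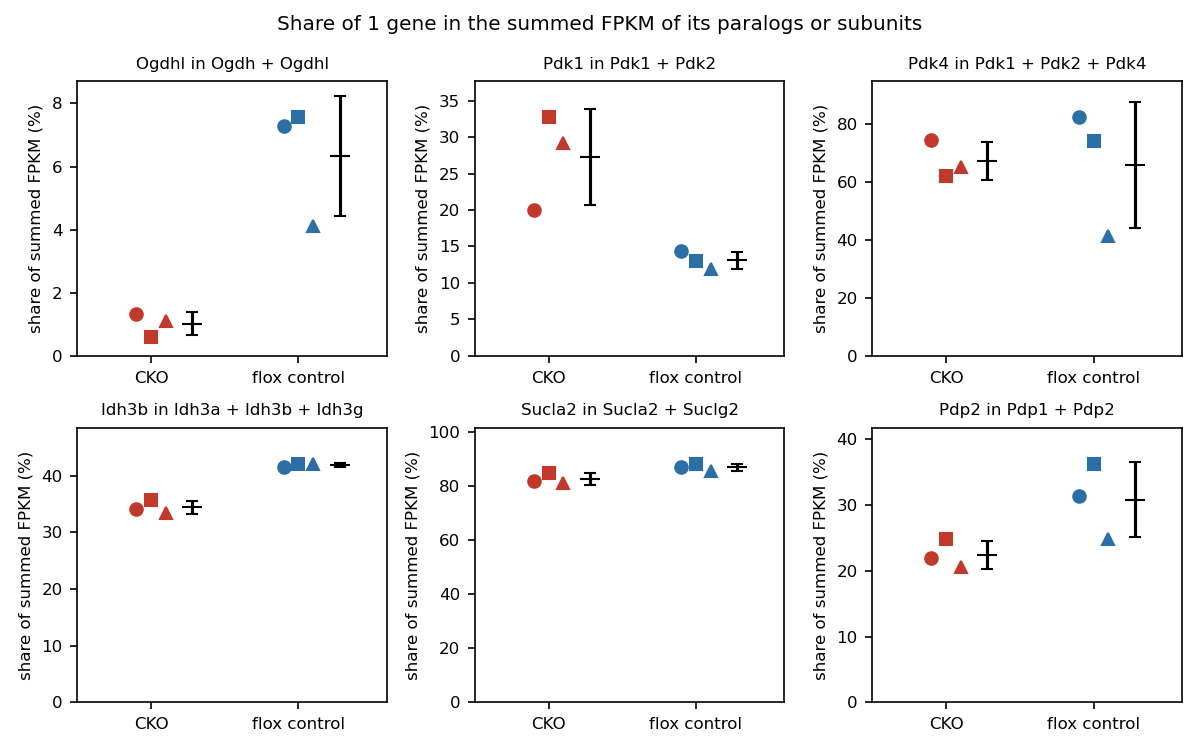
Share of 1 gene in the summed FPKM of its paralogs or of the subunits of its enzyme, in percent, for 6 of the 13 shares computed. Each symbol is a library (circle, square and triangle for 1, 2 and 3), and the black mark is the mean with its SD (n = 3). The share of Ogdhl is 0.606% to 1.32% in CKO hearts and 4.13% to 7.56% in flox controls.

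In the TCA cycle proper, 8 of 13 genes fell, and the other 5 had negative fold changes that did not pass. Cs, citrate synthase, which joins acetyl-CoA to oxaloacetate, measured 168, 182 and 203 FPKM in CKO 1, 2 and 3, against 307, 312 and 244 FPKM in flox control 1, 2 and 3. The groups did not overlap and CKO hearts held 0.640 times the control mean (log2 fold change -0.64, SE 0.15, limma adjusted p = 0.0423). The call was lost without any 1 library (0.0622 to 0.152) and with no filter on low values (0.0881).

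Among isocitrate dehydrogenases, 2 of the 3 subunit genes of the NAD-linked enzyme of the cycle fell, as did Idh1 of the NADP-linked enzymes. Idh3b, a regulatory subunit of the NAD-linked enzyme, measured 97.7, 99.5 and 112 FPKM in CKO 1, 2 and 3, against 199, 196 and 179 FPKM in flox control 1, 2 and 3 (log2 fold change -0.88, SE 0.11, limma adjusted p = 0.00859). Its call held without each library in turn (0.0157 to 0.0491), and its exons overlap those of Nop56 on the opposite strand by 5 bases. Idh3a, the catalytic subunit, measured 73.8, 87.3 and 89.4 FPKM in CKO 1, 2 and 3, against 122, 132 and 110.1 FPKM in flox control 1, 2 and 3 (-0.54, SE 0.13, adjusted p = 0.0436, lost without any 1 library at 0.0761 to 0.144, with TPM at 0.112 and with no filter on low values at 0.0737). Idh3g, the other regulatory subunit and X-linked, measured 115, 91.8 and 134 FPKM in CKO 1, 2 and 3, against 158, 138 and 135 FPKM in flox control 1, 2 and 3, and did not pass (-0.35, adjusted p = 0.22). All 3 subunits had groups that did not overlap, but in Idh3g CKO 3 and flox control 3 differed by little.

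Idh3b was the most abundant of these subunits in each flox control and the second in each CKO heart except CKO 2, where it was the first. It made up 34.1%, 35.7% and 33.5% of the 3 subunits' summed FPKM in CKO 1, 2 and 3, against 41.5%, 42.1% and 42.1% in flox control 1, 2 and 3. The share was lower in all 3 CKO hearts (exact two-sided permutation p = 0.1, adjusted 0.217). The share of Idh3g averaged 37.6% ± 4.06 in CKO hearts and 31.5% ± 1.75 in flox controls (SD, n = 3 each, exact permutation p = 0.2), and the share of Idh3a overlapped between the groups (25.8% to 31.3% in CKO hearts and 25.5% to 28.3% in flox controls).

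Idh2, the NADP-linked mitochondrial enzyme and the second most abundant of the 33 genes, measured 426, 338 and 492 FPKM in CKO 1, 2 and 3, against 497, 448 and 453 FPKM in flox control 1, 2 and 3. The groups overlapped, and the 95% interval of its log2 fold change ran from -0.58 to 0.24 (-0.17, limma adjusted p = 0.583). Idh1, its cytosolic and peroxisomal counterpart, was much less abundant and fell: it measured 11.4, 11.5 and 12.2 FPKM in CKO 1, 2 and 3, against 15.2, 15.8 and 15.0 FPKM in flox control 1, 2 and 3. Its log2 fold change was -0.36 (SE 0.08, adjusted p = 0.0326), with a spread of 0.438 FPKM in CKO hearts and 0.393 FPKM in flox controls (SD, n = 3 each). The Idh1 call was lost without any 1 library (0.0629 to 0.115) and under each rescaling, to the same sum of reads (0.0651), to TPM (0.226) and to TPM without mitochondrial genes (0.0521).

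Ogdhl had the largest fold difference of the 33 genes. This gene encodes a paralog of Ogdh, the dehydrogenase component of the oxoglutarate dehydrogenase complex, and lies on GRCm38 chromosome 14 (32322019 to 32348151, plus strand). It measured 3.02, 1.66 and 3.51 FPKM in CKO 1, 2 and 3, from 134 reads at the least, against 27.99, 29.8 and 12.6 FPKM in flox control 1, 2 and 3. CKO hearts held 0.116 times the control mean (log2 fold change -2.66, SE 0.35, limma adjusted p = 0.00909), and the call held without each library in turn (0.0126 to 0.0455). Flox control 3 was the lowest control, and it remained above every CKO heart.

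Ogdh, the abundant paralog, measured 226, 272 and 309.7 FPKM in CKO 1, 2 and 3, against 357, 364 and 292 FPKM in flox control 1, 2 and 3. CKO 3 lay above flox control 3, and the difference did not pass (log2 fold change -0.33, 95% interval -0.73 to 0.07, limma adjusted p = 0.256). Ogdhl made up 1.32%, 0.606% and 1.12% of the summed FPKM of both genes in CKO 1, 2 and 3, against 7.28%, 7.56% and 4.13% in flox control 1, 2 and 3, without overlap (exact two-sided permutation p = 0.1, adjusted 0.217). Dlst, the succinyl-transferring component of the same complex, measured 41.7, 46.9 and 49.3 FPKM in CKO 1, 2 and 3, against 70.1, 79.1 and 62.2 FPKM in flox control 1, 2 and 3. It fell to 0.652 times the control mean (log2 fold change -0.60, SE 0.13, adjusted p = 0.0307), a call lost without any 1 library (0.0563 to 0.112), with no filter on low values (0.0553) and after rescaling to TPM (0.0679).

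Succinyl-CoA ligase, which makes nucleotide triphosphate at substrate level, consists of the shared alpha subunit Suclg1 and either the ADP-forming beta subunit Sucla2 or the GDP-forming beta subunit Suclg2. Sucla2 measured 83.5, 85.6 and 101 FPKM in CKO 1, 2 and 3, against 175, 168 and 145 FPKM in flox control 1, 2 and 3 (log2 fold change -0.85, SE 0.13, limma adjusted p = 0.0132). Suclg1 measured 49.4, 52.4 and 63.8 FPKM in CKO 1, 2 and 3, against 88.4, 92.8 and 75.8 FPKM in flox control 1, 2 and 3 (-0.63, SE 0.14, adjusted p = 0.0354). Both fell, with no overlap between the groups. Suclg2 measured 18.6, 15.1 and 23.5 FPKM in CKO 1, 2 and 3, against 26.3, 22.4 and 24.2 FPKM in flox control 1, 2 and 3, where CKO 3 lay above flox control 2 (-0.35, 95% interval -0.74 to 0.03, adjusted p = 0.216). The processed pseudogene Gm15163 shares 20.1% of the 31-base words of Suclg2 and held 6.27 reads for every 100 of Suclg2. Sucla2 made up 81.2% to 85.0% of both beta subunits in CKO hearts and 85.7% to 88.3% in flox controls. The Sucla2 call was lost without flox control 1 (0.0637), and the Suclg1 call without CKO 1 (0.0669), CKO 2 (0.0936), flox control 1 (0.129), 2 (0.103) or 3 (0.0673) and with no filter on low values (0.0663).

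The last steps of the cycle are catalysed by fumarase, encoded by Fh1, and by mitochondrial malate dehydrogenase, encoded by Mdh2. Fh1 measured 82.1, 83.8 and 101 FPKM in CKO 1, 2 and 3, against 139, 139 and 126 FPKM in flox control 1, 2 and 3, and fell to 0.660 times the control mean (log2 fold change -0.60, SE 0.12, limma adjusted p = 0.0295). Mdh2 measured 225, 226 and 299 FPKM in CKO 1, 2 and 3, against 388, 394 and 342 FPKM in flox control 1, 2 and 3. Its groups did not overlap and its ratio of means was 0.666, close to that of Fh1, but the difference did not pass (-0.59, SE 0.16, adjusted p = 0.0612). Mdh2 passed when CKO 3 was left out (0.0468), with equal read sums (0.0276), with TPM (0.0459, and 0.020 without mitochondrial genes) and with no variance trend (0.0438). The Fh1 call was lost without CKO 1 (0.0586), CKO 2 (0.0775), flox control 1 (0.116), 2 (0.0871) or 3 (0.0762) and with no filter on low values (0.0518).

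**Figure D4:**
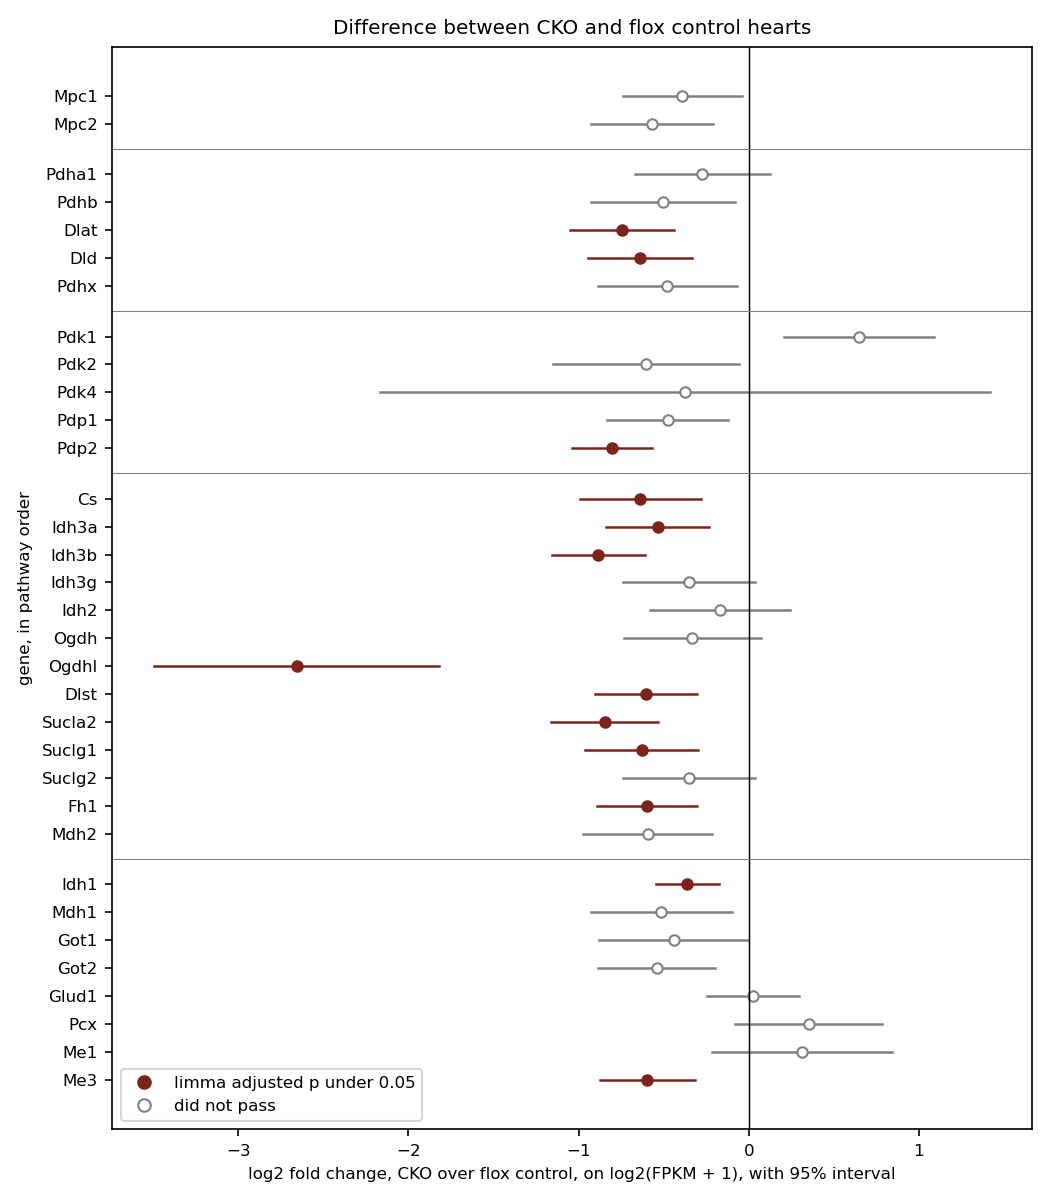
Log2 fold change of CKO over flox control for the 33 genes in pathway order, on the log2(FPKM + 1) scale, with 95% intervals from limma. Filled points passed at an adjusted p under 0.05 and open points did not. The 13 filled points all lie left of 0, Ogdhl lies farthest left at -2.66, and Pdk1, Glud1, Pcx and Me1 lie right of 0 without passing.

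The malate-aspartate shuttle enzymes had negative fold changes of similar size and none of the 3 genes passed. Mdh1, the cytosolic malate dehydrogenase and the most abundant of the 33 genes, measured 423, 465 and 591 FPKM in CKO 1, 2 and 3, against 713, 751 and 631 FPKM in flox control 1, 2 and 3 (log2 fold change -0.51, limma adjusted p = 0.113). Got2, the mitochondrial aspartate aminotransferase, measured 141, 127 and 169.5 FPKM in CKO 1, 2 and 3, against 221, 219.6 and 194 FPKM in flox control 1, 2 and 3 (-0.54, adjusted p = 0.0606). The groups of these genes did not overlap, and Got2 passed after rescaling to the same sum of reads (0.0258) or to TPM (0.0441, and 0.0206 without mitochondrial genes) and with no variance trend (0.0462). Mdh1 passed with TPM without mitochondrial genes (0.0443). Got1, the cytosolic aminotransferase, measured 168, 168 and 207 FPKM in CKO 1, 2 and 3, against 252, 295 and 197 FPKM in flox control 1, 2 and 3, and CKO 3 lay above flox control 3 (-0.44, adjusted p = 0.178).

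Beside Pdk1, the 3 members with positive fold changes were anaplerotic enzymes, and none passed. Glud1, glutamate dehydrogenase, averaged 36.1 ± 4.16 FPKM in CKO hearts and 35.3 ± 1.98 FPKM in flox controls (SD, n = 3 each), and the 95% interval of its log2 fold change ran from -0.25 to 0.30. Pcx, pyruvate carboxylase, which makes oxaloacetate from pyruvate, was the least abundant member in flox controls at 2.22 ± 0.674 FPKM, against 3.06 ± 0.472 FPKM in CKO hearts (0.35, limma adjusted p = 0.262). Me1, the cytosolic NADP-linked malic enzyme, measured 40.6, 28.6 and 42.4 FPKM in CKO 1, 2 and 3, against 33.6, 34.2 and 21.9 FPKM in flox control 1, 2 and 3 (0.31, adjusted p = 0.412). The groups of these 3 genes overlapped.

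Me3, the mitochondrial NADP-linked malic enzyme, fell. It measured 2.76, 2.13 and 3.10 FPKM in CKO 1, 2 and 3, against 4.43, 4.32 and 4.74 FPKM in flox control 1, 2 and 3, with no overlap. CKO hearts held 0.591 times the control mean (log2 fold change -0.60, SE 0.12, limma adjusted p = 0.0265). The call was lost without flox control 1 (0.0947), 2 (0.0707) or 3 (0.093) and with no filter on low values (0.0667).

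The order of levels was largely kept between the groups. Mdh1 and Idh2 led in both, at means of 493 and 419 FPKM in CKO hearts and 698 and 466 FPKM in flox controls. Ogdhl ranked 31 of 33 in CKO hearts, below Pcx, and 27 in flox controls. Pdk1 ranked 23 in CKO hearts and 28 in flox controls. Many neighbours in this order did not differ beyond their spread, such as Pdhb at 202 ± 21.3, Pdha1 at 195 ± 17.5 and Idh3b at 191 ± 10.9 FPKM in flox controls (SD, n = 3). The called genes ranged in level from Pdp2 to Cs, and their ratios of means ranged from 0.116 (Ogdhl) and 0.448 (Pdp2) to 0.765 (Idh1). The members lie on 15 chromosomes, and neither of the X-linked members, Pdha1 and Idh3g, was called.

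The remaining enzymes of the cycle and its feeding routes were examined in a second list of other pathway genes, of which 50 were in the table and 46 were tested. In that list 14 fell, 3 rose and 29 did not pass, with a median log2 fold change of -0.33. That is 30.4% lower and 6.52% higher, against 5.49% and 5.69% of all genes tested, so the share called higher was near that of all genes. This list, too, was chosen with earlier results of these data known, and the comparison is description only. Counts without 1 library were 10, 5 and 9 lower without CKO 1, 2 and 3, and 3, 4 and 6 lower without flox control 1, 2 and 3. Succinate dehydrogenase oxidises succinate to fumarate within the cycle. Sdhc, a membrane anchor subunit, measured 90.2, 80.2 and 97.8 FPKM in CKO 1, 2 and 3. In flox control 1, 2 and 3 it measured 137, 136 and 121 FPKM. Sdhc therefore fell (-0.55, limma adjusted p = 0.0348, lost without any 1 library at 0.0553 to 0.132). The other subunits did not pass, with log2 fold changes of -0.56 for Sdha (adjusted p = 0.0569), -0.55 for Sdhb (0.114) and -0.37 for Sdhd (0.121). Sdha passed with equal read sums (0.0319), no variance trend (0.0395), array weights (0.0491) and TPM without mitochondrial genes (0.0277), and Sdhb passed with the last of these (0.0448).

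Among feeding routes, Gpt2 stood out by size. This mitochondrial alanine aminotransferase gene, which links pyruvate and glutamate to alanine and oxoglutarate, measured 1.91, 1.48 and 2.12 FPKM in CKO 1, 2 and 3, against 9.76, 9.21 and 8.18 FPKM in flox control 1, 2 and 3 (log2 fold change -1.83, SE 0.12, limma adjusted p = 0.00257). Genes of the propionyl-CoA route to succinyl-CoA also fell: Pcca (-0.97), which overlaps Ggact, and Pccb (-0.63), the subunits of propionyl-CoA carboxylase, Mut (-0.53), the methylmalonyl-CoA mutase, and Mmaa (-0.69) and Mmab (-0.77), which handle its cobalamin cofactor. Calls of Gpt2, Mmaa and Mmab held without each library in turn. The aspartate-glutamate carriers Slc25a12 (-0.66) and Slc25a13 (-0.64), members of the same shuttle as Got1, Got2, Mdh1 and Mdh2, fell, as did the glutamate carrier Slc25a22 (-0.66).

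Further decreases were those of Sirt5 (-0.60), a mitochondrial desuccinylase, and Fahd1 (-0.53), an oxaloacetate decarboxylase. Lipt2 (-0.41), which acts in the synthesis of the lipoyl cofactor of the dehydrogenase complexes, also fell. Leaving out 1 library lost the calls of Pcca, Pccb, Mut, Slc25a12, Slc25a13, Slc25a22, Sirt5, Fahd1 and Lipt2 in 1 or more fits, with highest adjusted p of 0.0869, 0.136, 0.132, 0.0888, 0.0754, 0.147, 0.0505, 0.104 and 0.116 in that order. For each of them except Lipt2, with 0.116, and Mut, with 0.132, at least 1 of the 6 fits kept the call. With TPM the calls of Slc25a12 (0.051), Slc25a22 (0.0732), Mut (0.0545), Fahd1 (0.0615) and Lipt2 (0.181) were lost. With no filter on low values those of Pcca, Pccb, Mut, Slc25a22, Fahd1 and Lipt2 were lost. Lipt2 also lost its call with equal read sums, TPM without mitochondrial genes and voom on recovered reads. It was called in 4 of 16 alternatives and held 60 to 103 reads in a library.

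The 3 increases included a kinase of the complex outside the 33 genes. Pdk3, an X-linked pyruvate dehydrogenase kinase, measured 9.58, 11.8 and 16.6 FPKM in CKO 1, 2 and 3, against 2.56, 3.02 and 3.49 FPKM in flox control 1, 2 and 3 (log2 fold change 1.74, SE 0.19, limma adjusted p = 0.0062). All CKO hearts lay above all controls, and the call held without each library in turn (0.00405 to 0.0352), CKO 3 included. Asns, asparagine synthetase, which uses aspartate, rose to 10.9 ± 4.48 FPKM in CKO hearts, against 1.08 ± 0.343 FPKM in flox controls (2.46, limma adjusted p = 0.00607). Slc25a10, the dicarboxylate carrier, averaged 9.15 ± 0.383 FPKM in CKO hearts and 5.59 ± 0.939 FPKM in flox controls (0.63, adjusted p = 0.0212), a call lost without CKO 2 (0.0511), CKO 3 (0.0665), flox control 1 (0.0869) or flox control 3 (0.0774).

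**Figure D5:**
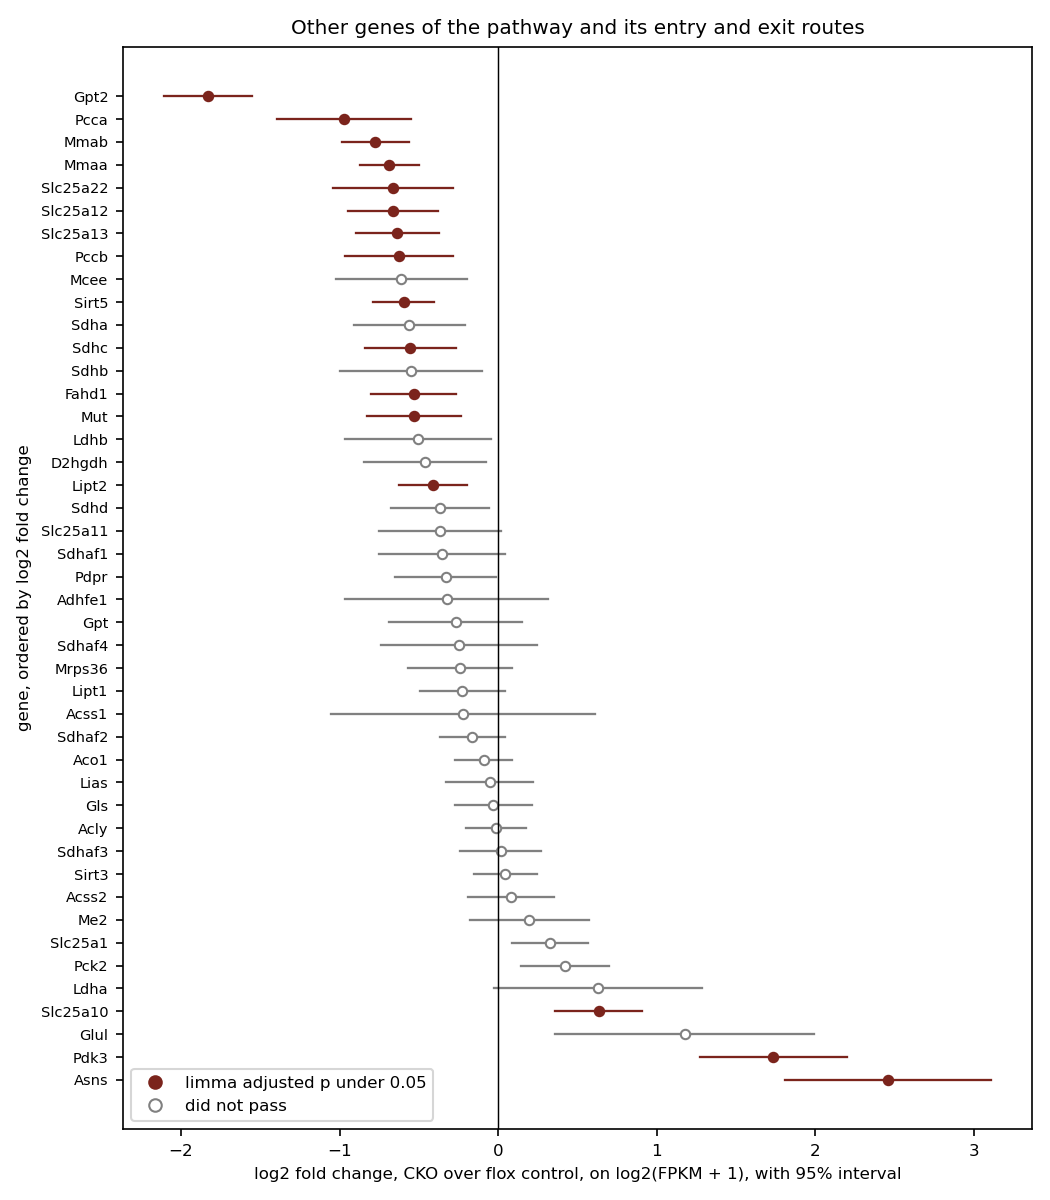
Log2 fold change of CKO over flox control for 44 of the 46 other pathway genes tested, ordered by value, on the log2(FPKM + 1) scale with 95% intervals from limma. Filled points passed at an adjusted p under 0.05: 13 lie left of 0, with Gpt2 farthest left at -1.83, and 3 lie right of 0 (Slc25a10, Pdk3 and Asns).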

How the data were processed

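The authors deposited FPKM for 54532 genes in 6 heart libraries. Poly-T selection, fragments of 370 to 420 bp and paired reads of 150 bases are per the labels' protocols. Per the submitters' processing notes, CASAVA, HISAT2 2.0.5, featureCounts 1.5.0-p3, DESeq2 1.20.0 and GRCm38.p6 were used; no step is tied to a value. Deposited gene lengths were used to recover reads, and 100.0% of values gave whole reads within 0.001 reads (relative tolerance for high counts). The FPKM denominators were proportional to median-of-ratios size factors.

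The 12144 genes averaging 1 FPKM or more were fitted with limma 3.58.1 (R 4.3.3) on log2(FPKM + 1), using genotype alone and limma's variance trend; calls have a Benjamini-Hochberg adjusted p under 0.05 over all these genes, 2-sided. Fold changes on this scale understate changes of low genes. The fit was also run on simulated data. Their noise was independent for each gene and library, so they cannot show how a shift shared by many genes of a library affects calls. Python 3.11.15, numpy 2.4.6, pandas 2.3.3, scipy 1.17.1 and matplotlib 3.10.9 made tables and figures.

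The members and lists were chosen with earlier results of these data known. Named genes are all members, Ythdc1, the succinate dehydrogenase subunits and the other pathway genes called, apart from items not reported here; marker genes beside them were chosen after their values were seen. All 33 members had identical bounds in GENCODE M21. Exons of 7 overlap a gene on the opposite strand, and the labels do not describe strand marking. The largest parts were 23.05% of the exons of Mpc1 (with 4930506C21Rik, mean 0.856 FPKM) and 16.15% of those of Pdha1 (with Map3k15, mean 0.303 FPKM). RefSeq promoter windows are from GRCm38.p6. A comparison of paralogous proteins was not analysed here.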

Additional observations from a re-analysis of the deposited data

How the results depend on the processing

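Each of 17 alternatives recomputed the counts and the named genes it tested. The 33 genes gave 13 decreases with a pseudocount of 0.1 or 0.01, array weights or voom on recovered reads. They gave 12 with TPM or a filter at 5 FPKM (where Pdp2, Me3 and Pcx were not tested and Mpc2 was called). They gave 15 with no variance trend or the same sum of reads, and 16 with TPM without mitochondrial genes. With no filter they gave 6, other pathway genes 6, and all genes 410 lower and 388 higher; this fit tests more genes. With TPM, 423 of all genes were lower; the cause was not tested. With the same sum of reads, TPM or TPM without mitochondrial genes, 1 member (Pdk1) was higher. Without 1 library, decreases numbered 3 to 9 among members and 3 to 10 among other pathway genes, and all genes numbered 155 to 683 lower and 160 to 807 higher; these fits have fewer samples. With the replicate number as a block, 4 members and 5 other pathway genes were lower, and 348 of all genes lower and 367 higher. These were Pdp2, Idh3b, Ogdhl and Me3, and Gpt2, Slc25a22, Mmaa, Mmab and Sirt5. All other decreases called in these 2 lists were lost with the block, as were the calls of Ythdc1 and Slc25a10. The replicate numbers are not known to pair mice. Deviations of same-numbered libraries correlated at 0.14, 0.06 and -0.01, and of the CKO libraries only CKO 1 correlated best with its own number. The log2 fold change of Glud1 turned to -0.050 without CKO 3 and -0.019 without flox control 3 and reached 0.11 without CKO 1. That of Pdk4 turned to 0.0058 without CKO 2 and 0.28 without flox control 1 and reached -1.19 without flox control 3. No other member changed sign in any alternative. The median log2 fold change of the members tested lay between -0.65 and -0.47 throughout. Groups of 3 limit precision, and recovered reads carry counting error only.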

Other observations

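Nnt, the nicotinamide nucleotide transhydrogenase of the inner mitochondrial membrane, which makes NADPH beside Idh2 and Me3, was listed among the other pathway genes and did not reach the level required for testing. It measured 0.158, 0.131 and 0.282 FPKM in CKO 1, 2 and 3 (18 to 36 reads each), against 0.160, 0.202 and 0.0713 FPKM in flox control 1, 2 and 3 (10 to 25 reads each). All 6 libraries were therefore low, whichever the genotype. C57BL/6J mice are known to carry a deletion within Nnt; the labels give no strain. Slc25a18, a glutamate carrier that was also under that level, measured 0.612, 1.08 and 1.62 FPKM in CKO 1, 2 and 3, against 0.310, 0.387 and 0.184 FPKM in flox control 1, 2 and 3, without overlap and without a test.

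Glul, glutamine synthetase, which takes glutamate away from the cycle, was chosen after its values were seen. It measured 125, 136 and 238 FPKM in CKO 1, 2 and 3, against 87.6, 87.1 and 45.0 FPKM in flox control 1, 2 and 3, without overlap, and did not pass (log2 fold change 1.17, limma adjusted p = 0.0756).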
